A study of Homo sapiens
Mus musculus with 2 samples.

Results

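The D-type cyclins and their kinases CDK4 and CDK6 were examined in lymphocyte cell lines profiled by Drop-seq. The set holds 10 genes of the 29259 in the tables, chosen by identifier. The mouse genes are Ccnd1 (mm10_ENSMUSG00000070348), Ccnd2 (mm10_ENSMUSG00000000184), Ccnd3 (mm10_ENSMUSG00000034165), Cdk4 (mm10_ENSMUSG00000006728) and Cdk6 (mm10_ENSMUSG00000040274). The human genes are CCND1 (hg19_ENSG00000110092), CCND2 (hg19_ENSG00000118971), CCND3 (hg19_ENSG00000112576), CDK4 (hg19_ENSG00000135446) and CDK6 (hg19_ENSG00000105810). All 10 had a row in the table at 300 cells per µl and 9 had one at 150 cells per µl, where the absent CCND1 was counted as 0.

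D-type cyclins are the regulatory subunits that appear when growth signals push a cell out of quiescence. Each binds CDK4 or CDK6, and the active complex phosphorylates the retinoblastoma protein RB, which then lets go of E2F transcription factors so that genes for DNA replication are expressed. INK4 proteins inhibit CDK4 and CDK6 by direct binding, while CIP/KIP proteins act mainly on the cyclin E-CDK2 complex further along. Lymphocytes are known to rely on cyclins D2 and D3 more than on cyclin D1, and CDK6 is the kinase best known from the T lineage.

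Both libraries came, by the study's sample list, from 1 mixture, in equal parts, of 4 lines that each descend from a single tumour or hybridoma. EL4 is a mouse T lymphoma line, IVA12 a mouse B hybridoma, Jurkat a human T leukaemia line and TALL-104 a small human cytotoxic T leukaemia line. By the study's methods, TALL-104 cells were grown with IL-2. Loading was 150 cells per µl for one library and 300 cells per µl for the second. Cells were barcodes with at least 1000 UMIs (unique molecular identifiers, each marking 1 captured mRNA molecule), of which at least 90% came from 1 species.

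The cells were grouped without the 10 genes and without cell cycle genes, and the groups were named from marker genes. There were 41 and 351 EL4-like cells, 27 and 218 IVA12-like cells and 87 and 318 Jurkat-like cells at 150 and 300 cells per µl, with median depths of 12430 and 7965, 14775 and 8544, and 6383 and 3713.5 UMIs. EL4-like cells carried all 9 T cell markers that had a row. Of these, Cd2 hardly separated the mouse classes, found in 14.6% and 20.2% of EL4-like and 11.1% and 17.9% of IVA12-like cells. IVA12-like cells carried Jchain, Mzb1, Cd79b and Pou2af1, but the defining B cell gene Cd79a gave 0 and 2 UMIs at 150 and 300 cells per µl. H2-Aa gave 1 and 6 UMIs there and Cd74 22 and 71. That class therefore rests on Jchain, Mzb1, Cd79b, Pou2af1 and Blnk (80 and 330 UMIs) rather than on Cd79a, H2-Aa or Cd74. Of 637 named mouse cells, 636 had more UMIs from their own class's list, and 19 had 20% or more of their marker UMIs from the other list. EL4-like cells fell into 4 clusters, of which clusters 1 and 9 (181 and 34 cells) held cells of the library at 300 cells per µl only. A further 17 and 116 shallow mouse cells, in 3 clusters, stayed unnamed. No cluster of human cells was led by cytotoxic markers, so TALL-104 is not described among the cells of at least 1000 UMIs. Levels are given as CPM, the UMIs of a gene scaled to a total of 1000000 UMIs of its species, and since Drop-seq reads mRNA 3′ ends, UMIs are not scaled by transcript length. Whether different genes are captured equally well was not tested, and the order of levels between genes is given with that limit. Intervals are 95% exact Poisson or binomial intervals and cover counting error only.

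EL4-like cells contained mRNA of cyclins D2 and D3 and of both kinases. Cdk6 was the most abundant of the 5 genes, with 318 UMIs or 543 CPM (485 to 606) at 150 cells per µl and 2104 UMIs or 673 CPM (644 to 702) at 300 cells per µl. Ccnd2 followed with 187 UMIs (319 CPM, 275 to 368) and 1422 UMIs (455 CPM, 431 to 479). Cdk4 stood at 138 UMIs (236 CPM, 198 to 278) and 964 UMIs (308 CPM, 289 to 328). Ccnd3 reached 79 UMIs (135 CPM, 107 to 168) and 563 UMIs (180.0 CPM, 165 to 195). Cyclin D1 was scarce, since Ccnd1 gave 8 UMIs (13.7 CPM, 5.90 to 26.9) and 60 UMIs (19.2 CPM, 14.6 to 24.7). The order was the same in both libraries, and only the intervals of Ccnd2 and Cdk4 at 150 cells per µl overlapped between neighbours.

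In IVA12-like cells, cyclin D2 dominated and Cdk6 was nearly absent. Ccnd2 gave 760 UMIs (1704 CPM, 1585 to 1830) at 150 cells per µl and 4258 UMIs (1950.3 CPM, 1892 to 2010) at 300 cells per µl. Cdk4 was present at 124 UMIs (278 CPM, 231 to 332) and 652 UMIs (299 CPM, 276 to 322). Cdk6 gave 2 UMIs (4.48 CPM, 0.543 to 16.2) and 42 UMIs (19.2 CPM, 13.9 to 26.0), so nearly all the kinase mRNA of this class was Cdk4. The other cyclins were low. Ccnd3 gave 27 UMIs (60.5 CPM, 39.9 to 88.1) and 118 UMIs (54.0 CPM, 44.7 to 64.7), and Ccnd1 gave 10 UMIs (22.4 CPM, 10.8 to 41.2) and 123 UMIs (56.3 CPM, 46.8 to 67.2). Ccnd3 thus had more UMIs than Ccnd1 at 150 cells per µl and about as many at 300 cells per µl.

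Jurkat-like cells carried CCND3 as their D cyclin and CDK6 as their main kinase. CDK6 gave 766 UMIs (1242 CPM, 1156 to 1334) at 150 cells per µl and 2390 UMIs (1804 CPM, 1732 to 1877) at 300 cells per µl. CCND3 followed with 107 UMIs (174 CPM, 142 to 210) and 293 UMIs (221 CPM, 197 to 248). CDK4 stood at 106 UMIs (172 CPM, 141 to 208) and 253 UMIs (191 CPM, 168 to 216), and its interval overlapped that of CCND3 in both libraries. Only 3 and 6 UMIs of CCND2 were found (4.87 and 4.53 CPM). For CCND1 there were 0 and 2 UMIs, where 0 UMIs allow a level of up to 4.87 CPM by the limit of 3 UMIs.

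**Figure D1:**
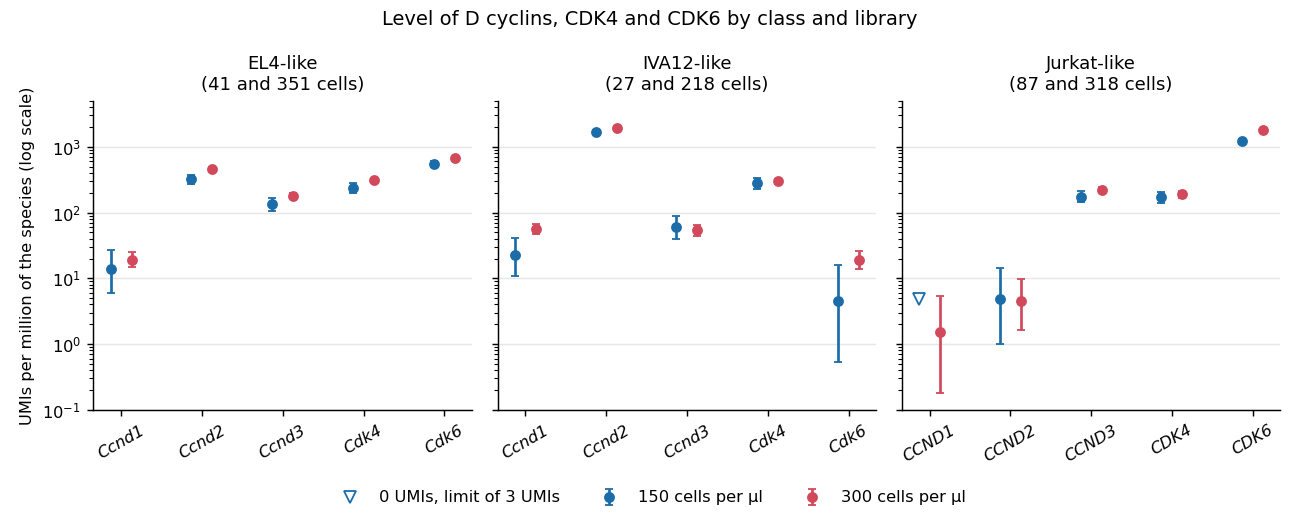
CPM (log axis) of the 5 genes of each species in EL4-like, IVA12-like and Jurkat-like cells, with 1 point per library and 95% Poisson intervals as bars. Ccnd2 lies highest in IVA12-like cells at 1704 and 1950.3 CPM while Cdk6 lies there at 4.48 and 19.2 CPM, and the open triangle marks CCND1 at 0 UMIs by the limit of 3 UMIs, 4.87 CPM.

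Expressed as shares, the cyclin make-up of each class differed far more between classes than between libraries. Of the D cyclin UMIs of EL4-like cells, Ccnd2 made up 68.2% (62.4% to 73.7%, 187 of 274) at 150 cells per µl and 69.5% (67.5% to 71.5%, 1422 of 2045) at 300 cells per µl. Ccnd3 held 28.8% and 27.5%, and Ccnd1 the remaining 2.92% and 2.93%. In IVA12-like cells Ccnd2 took 95.4% (93.7% to 96.7%, 760 of 797) and 94.6% (93.9% to 95.3%, 4258 of 4499). In Jurkat-like cells the place of cyclin D2 was taken by cyclin D3, with CCND3 at 97.3% (92.2% to 99.4%, 107 of 110) and 97.3% (94.8% to 98.8%, 293 of 301).

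The kinases divided in another way. Cdk6 made up 69.7% (65.3% to 73.9%) and 68.6% (66.9% to 70.2%) of the Cdk4 and Cdk6 UMIs in EL4-like cells, and CDK6 made up 87.8% (85.5% to 89.9%) and 90.4% (89.2% to 91.5%) in Jurkat-like cells. In IVA12-like cells the share was 1.59% (0.193% to 5.62%) and 6.05% (4.40% to 8.09%). Both T cell classes therefore held more CDK6 than CDK4 mRNA, and the B cell class held the reverse.

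**Figure D2:**
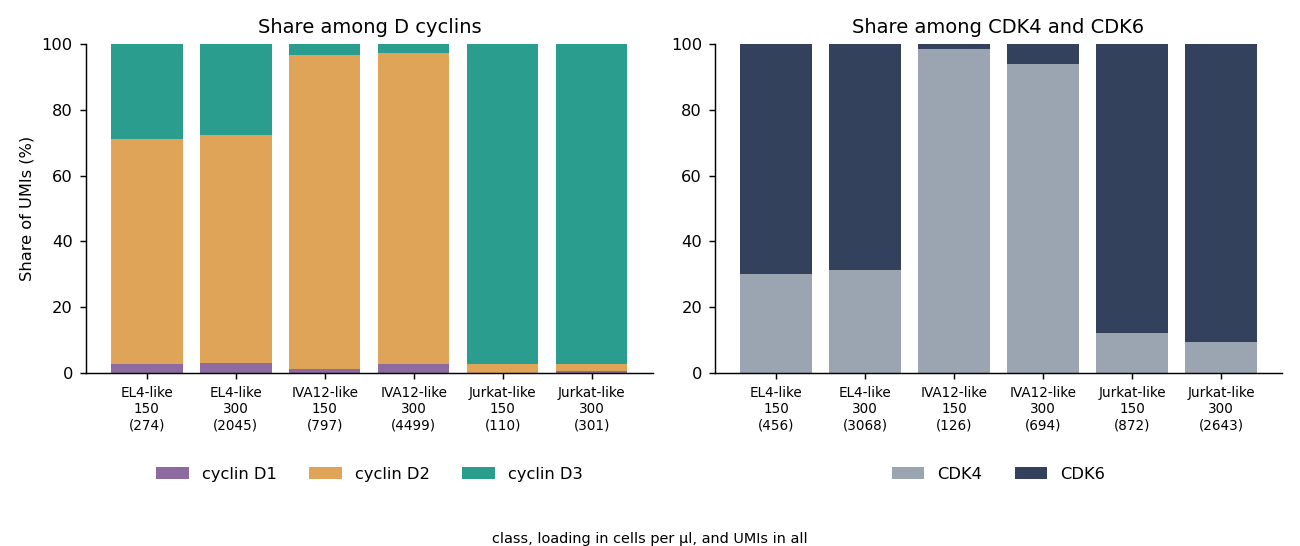
Share of UMIs (%) of cyclins D1, D2 and D3 (left) and of CDK4 and CDK6 (right) in each class and library, with the total UMIs of each bar in parentheses. Ccnd2 fills 68.2% and 69.5% of the EL4-like and 95.4% and 94.6% of the IVA12-like bars, CCND3 fills 97.3% of both Jurkat-like bars, and Cdk6 shrinks to 1.59% and 6.05% in IVA12-like cells.

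Within a class the measured values varied from cell to cell. The part of counting error and of depth in this spread was not tested. Among cells of at least 2000 UMIs, Ccnd2 ranged in IVA12-like cells from 359 CPM over a median of 1599 to 4550.2 CPM at 150 cells per µl, and from 0 over 1697 to 6053 CPM at 300 cells per µl. A single IVA12-like cell of 216 had no Ccnd2 UMI at 300 cells per µl. In EL4-like cells the lowest, median and highest Cdk6 values were 106, 489 and 1154 CPM at 150 cells per µl and 0, 632 and 2712 CPM at 300 cells per µl. The corresponding CDK6 values in Jurkat-like cells were 0, 1093 and 3482 CPM, and 0, 1766 and 4371 CPM. Cells with 0 UMIs of CDK6 were few, 3 of 82 and 5 of 282. Low genes had medians of 0, as Ccnd1 did in all mouse classes and libraries.

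Most EL4-like cells had UMIs of both cyclins D2 and D3. Of the EL4-like cells of at least 2000 UMIs, 32 of 41 (78.0%, 62.4% to 89.4%) and 238 of 338 (70.4%, 65.2% to 75.2%) had UMIs of both Ccnd2 and Ccnd3. Ccnd3 without Ccnd2 was seen in 2 and 12 cells. Each gene was widely detected by itself, since 3 and 21 of these cells lacked Ccnd2 and 7 and 88 lacked Ccnd3. Whether they were found together more often than their separate shares would give was not tested. In IVA12-like cells Ccnd3 was never seen without Ccnd2 (0 of 27 and 0 of 216 cells, which allows shares of up to 11.1% and 1.39% by the limit of 3 cells), where only 1 of these cells lacked Ccnd2. Ccnd1 was almost never the sole D cyclin of a mouse cell, with 1 such cell among the 4 sets. In Jurkat-like cells 35 of 82 (42.7%) and 122 of 282 (43.3%) had no D cyclin UMI at all. That class was the shallowest of the 3, with medians of 6383 and 3713.5 UMIs. The part of limited depth in these zeros was not tested, so they do not show that the mRNA was absent.

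Shares of cells were then compared at an equal depth of 2000 UMIs per cell, after 1 random draw, and set beside the same gene in cells of the other species, where its UMIs are background. Ccnd2 was detected in 96.3% and 94.4% of IVA12-like cells, in 39.0% and 54.7% of EL4-like cells, and in 3.66% and 12.1% of Jurkat-like cells. Over all possible draws the expected Ccnd2 shares were 93.1% and 93.7%, 47.5% and 59.2%, and 5.04% and 11.1% in these classes. For Cdk6 the shares were 53.7% and 67.2% in EL4-like cells, against 60.8% and 70.1% expected over all draws. In IVA12-like cells they were 0% (0 of 27, up to 11.1%) and 6.02% (3.24% to 10.1%), which overlaps the 1.22% and 3.19% (1.47% to 5.97%) of Jurkat-like cells. Over all possible draws the expected shares at 300 cells per µl were 3.46% in IVA12-like and 3.41% in Jurkat-like cells. Detection of Cdk6 in IVA12-like cells could thus not be told from background at this depth. CCND3 was detected in 20.7% and 36.5% of Jurkat-like cells, against 25.5% and 35.2% expected over all draws. It was detected in 0 cells of both mouse classes (0 of 338 EL4-like and 0 of 216 IVA12-like cells at 300 cells per µl, which allows up to 0.888% and 1.39%). CCND1 and CCND2 were detected in at most 0.709% and 1.42% of Jurkat-like cells, where the mouse genes Ccnd1 and Ccnd3 also reached 0.709%. Before thinning, Ccnd2 was found in 100% and 99.5% of IVA12-like, 92.7% and 91.5% of EL4-like, and 14.9% and 19.5% of Jurkat-like cells.

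The mouse classes were compared to ask which D cyclin and kinase differ between the T and the B line. Ccnd2 was 4.55-fold higher in IVA12-like cells (log2 difference 2.19 ± 0.09 SE, adjusted p = 1.1e-119), while Cdk6 was 40.3-fold higher in EL4-like cells (log2 difference −5.33 ± 0.18 SE, adjusted p = 4.31e-184). Ccnd3 was 3.09-fold higher in EL4-like cells (−1.63 ± 0.17 SE, adjusted p = 2.26e-19). Cdk4 did not pass the test (0.01 ± 0.12 SE, adjusted p = 0.936, 95% interval −0.22 to 0.25). Ccnd1 was 2.68-fold higher in IVA12-like cells (1.42 ± 0.26 SE, adjusted p = 1.36e-07), but this rests on the library of the higher loading, since the other library alone gave a log2 difference of 0.61 and DESeq2 gave an adjusted p of 0.3.

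Of the 5 mouse genes, 2 were higher in IVA12-like and 2 in EL4-like cells. The background is high, since 5057 of 8851 genes tested (57.1%) passed the threshold of 0.05, 27.8% higher in IVA12-like and 29.3% higher in EL4-like cells, so that the number of members called is not by itself a result. The 2 single-library values had the same sign for Ccnd2 (2.43 and 2.07), Ccnd3 (−1.08 and −1.75) and Cdk6 (−6.01 and −5.11) and opposite signs for Cdk4 (0.27 and −0.08). The test used edgeR's quasi-likelihood method on 4 sums of UMIs, 1 per library and class, with Benjamini-Hochberg adjustment. With the library as a block, these p-values rest on differences of the class effect between libraries, with the spread shared across genes. As both libraries sampled the same mixture, they do not measure the spread between cultures.

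**Figure D3:**
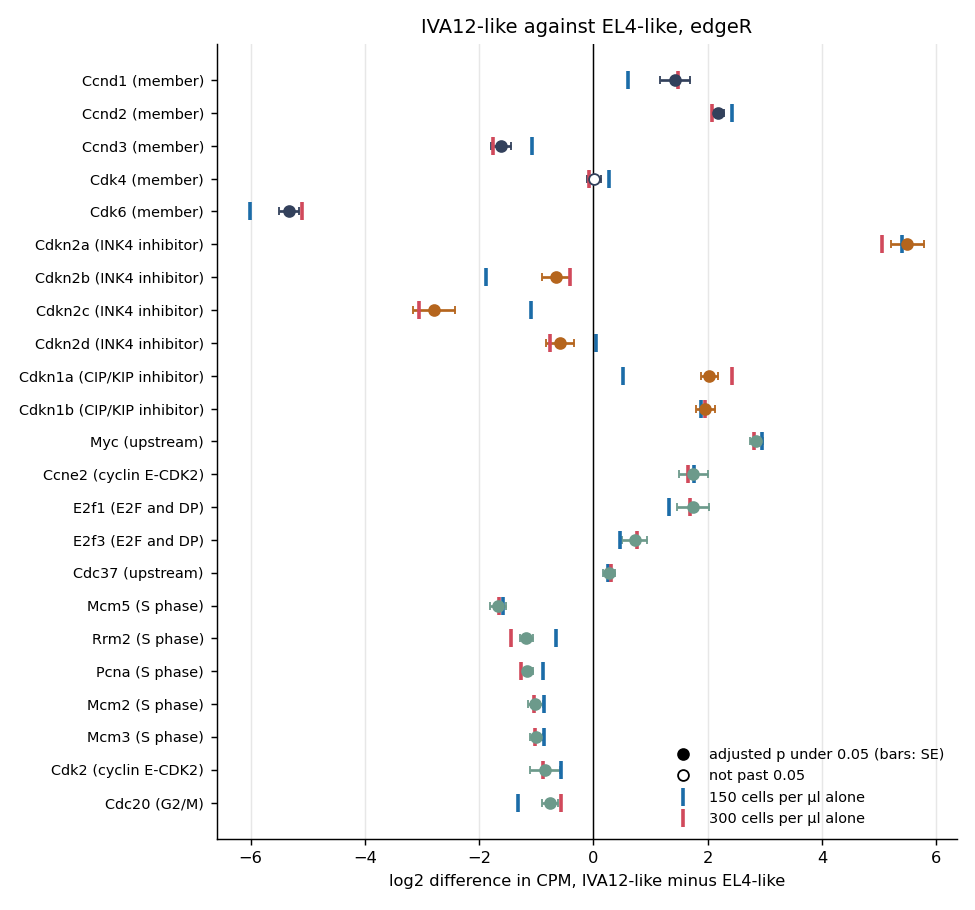
Difference in log2 CPM (IVA12-like minus EL4-like, edgeR, bars are SE) for the mouse D cyclins and kinases, the INK4 and CIP/KIP inhibitors and further pathway genes, with coloured ticks for each library alone. Cdk6 at −5.33 and Cdkn2a at 5.49 lie farthest out in opposite directions, Cdk4 lies at 0.01, and the Ccnd1, Cdkn2c and Cdkn1a ticks of the 2 libraries lie far apart.

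Some of the low values were set beside the level of class markers in the opposite class. In IVA12-like cells Cdk6 stood at 0.826% and 2.86% of its EL4-like level. The T cell markers with at least 50 CPM in EL4-like cells stood in IVA12-like cells at a median of 0.856% (0% to 3.48%, 6 genes) and 2.07% (1.76% to 6.08%, 7 genes) of theirs. Cdk6 therefore lay within the range of genes that mark the other class. Ccnd3 lay above that range, at 44.9% and 30.03% of its EL4-like level. In EL4-like cells, Ccnd2 stood at 18.7% and 23.3% and Ccnd1 at 60.9% and 34.0% of their IVA12-like levels. The 5 B cell markers had a median of 0.472% and 1.201% there, with Pou2af1 highest at 13.96% and 11.5%. The summed T cell markers reached 40.4 and 104 CPM in IVA12-like cells against 2979 and 3388 CPM in EL4-like cells, and the summed B cell markers 87.1 and 160 CPM in EL4-like against 7196 and 7165 CPM in IVA12-like cells. Cd3e, Thy1 and Lat were among those at 0 UMIs in IVA12-like cells at 150 cells per µl, and Cd79a and H2-Aa were at 0 in EL4-like cells of both libraries. What part of these residual levels came from free RNA was not tested.

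**Figure D4:**
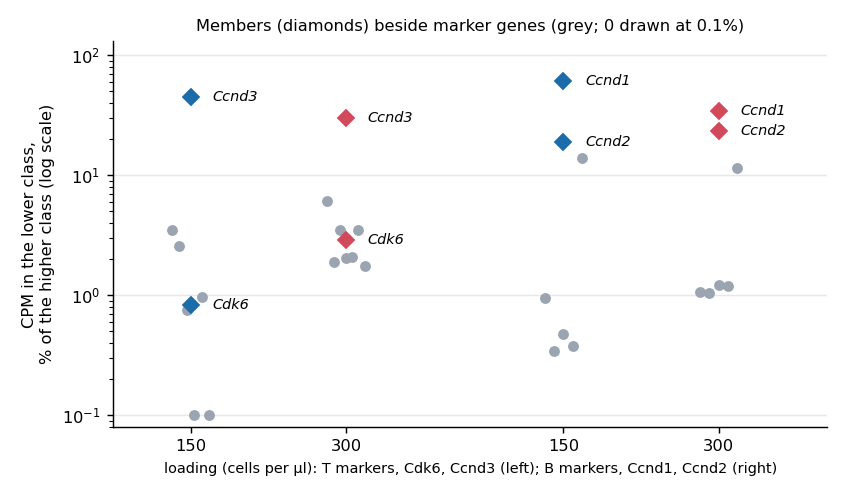
CPM in the class where a gene is lower as a percentage of CPM in the class where it is higher (log axis), per library. Grey points are T cell or B cell markers with at least 50 CPM in their own class, with values of 0 drawn at 0.1%, and diamonds are the named genes. Cdk6 (0.826% and 2.86%) lies among the T cell markers, whereas Ccnd3, Ccnd1 and Ccnd2 lie at 18.7% or more.

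The inhibitors of the D cyclin kinases were read next, beside the 57.1% of all genes that passed the same test. All 4 INK4 genes passed it, 1 higher in IVA12-like and 3 higher in EL4-like cells, and both tested CIP/KIP genes were higher in IVA12-like cells. Cdkn2a (ENSMUSG00000044303), whose locus encodes p16INK4A and the p53 regulator p19ARF, gave 70 UMIs (157 CPM) and 385 UMIs (176 CPM) in IVA12-like cells and 0 and 14 UMIs (4.48 CPM) in EL4-like cells. The log2 difference was 5.49 ± 0.29 SE (adjusted p = 7.1e-77). Counts per gene do not tell its 2 products apart.

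The other INK4 genes ran the opposite way at low counts. Cdkn2c (ENSMUSG00000028551), encoding p18INK4C, gave 17 and 133 UMIs (29.0 and 42.5 CPM) in EL4-like cells against 5 and 10 UMIs (11.2 and 4.58 CPM) in IVA12-like cells. Its log2 difference was −2.79 ± 0.36 SE (adjusted p = 1.25e-13), or −1.10 in the library at 150 cells per µl alone and −3.05 in the other. Cdkn2b (ENSMUSG00000073802), encoding p15INK4B, was 44.4 and 40.0 CPM in EL4-like against 8.97 and 30.7 CPM in IVA12-like cells (adjusted p = 0.0144). Cdkn2d (ENSMUSG00000096472), encoding p19INK4D, was 37.6 and 40.6 CPM against 38.1 and 24.3 CPM (adjusted p = 0.0299), and its classes overlapped. Without the library block, edgeR no longer called Cdkn2b and Cdkn2d (adjusted p = 0.109 and 0.232), and DESeq2 called neither them nor Cdkn2c (adjusted p = 0.367, 0.779 and 0.0565).

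Both CIP/KIP genes that were tested were higher in IVA12-like cells. Cdkn1b (ENSMUSG00000003031), encoding p27KIP1, was at 206 and 211 CPM in IVA12-like and 54.6 and 52.4 CPM in EL4-like cells (log2 difference 1.96 ± 0.16 SE, adjusted p = 3.27e-31). Cdkn1a (ENSMUSG00000023067), encoding p21CIP1, was at 119 and 380 CPM against 83.7 and 69.1 CPM (2.03 ± 0.15 SE, adjusted p = 8.55e-40), and the library at 150 cells per µl alone gave 0.52. A single IVA12-like cell held 325 of the 830 Cdkn1a UMIs at 300 cells per µl, and without it the level was 232 CPM and the log2 difference 1.44 (edgeR adjusted p = 1.25e-18). Cdkn1c (ENSMUSG00000037664) had 1 to 11 UMIs per class and library and was not tested.

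The rest of the pathway is given from lists of 42 mouse genes, of which 40 were tested. In all, 9 (against 27.8% of all genes tested) were higher in IVA12-like cells, 22 (against 29.3%) in EL4-like cells and 9 did not pass. Their median log2 difference was −0.50, beside −0.03 over all genes tested. Of the upstream genes, Myc (ENSMUSG00000022346), a growth factor-responsive activator of Ccnd2, was at 1092 and 1151 CPM in IVA12-like and 142 and 160 CPM in EL4-like cells (2.85 ± 0.11 SE, adjusted p = 3.07e-136). Cdc37 (ENSMUSG00000019471), the chaperone that loads CDK4 and CDK6 onto HSP90, differed little (0.27 ± 0.11 SE, adjusted p = 0.0306). The RB family had 2 of 3 genes higher in EL4-like cells and none higher in IVA12-like cells. Of those called, Rb1 had opposite signs at 150 and 300 cells per µl alone (0.38 and −0.85).

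Among the targets of RB, the E2F and DP genes split, with 3 of 8 higher in IVA12-like and 2 in EL4-like cells. Among these calls, E2f2 (−0.20 and 0.93) and E2f8 (0.15 and −1.22) had opposite signs at 150 and 300 cells per µl alone. E2f1 (ENSMUSG00000027490) was at 22.4 and 51.3 CPM in IVA12-like against 6.83 and 15.03 CPM in EL4-like cells (adjusted p = 5.43e-09), and E2f3 (ENSMUSG00000016477) was 1.65-fold higher (adjusted p = 0.00301). In the cyclin E-CDK2 list, Ccne2 (ENSMUSG00000028212) was 3.36-fold higher in IVA12-like cells (adjusted p = 4.9e-11) and the kinase Cdk2 (ENSMUSG00000025358) 1.80-fold higher in EL4-like cells (adjusted p = 0.00346). By contrast, all 6 S phase genes were higher in EL4-like cells. They included Mcm5 (ENSMUSG00000005410, 3.18-fold), Mcm2 (ENSMUSG00000002870, 2.03-fold) and Mcm3 (ENSMUSG00000041859), which was at 430.2 and 541 CPM against 229 and 270.2 CPM. These genes encode subunits of the replicative helicase. Pcna (ENSMUSG00000027342), the sliding clamp of DNA polymerase, was 2.24-fold higher and Rrm2 (ENSMUSG00000020649), a subunit of ribonucleotide reductase, 2.26-fold. Of 10 G2/M genes, 7 were higher in EL4-like cells, among them Cdc20 (ENSMUSG00000006398, 1.70-fold). All these folds came from the same edgeR fit, and DESeq2 did not call E2f1, E2f3, Cdk2 or Cdc37 (adjusted p = 0.121, 0.543, 0.493 and 0.353). Without the library block, edgeR did not call E2f3, Cdk2 or Cdc37 (adjusted p = 0.0769, 0.0757 and 0.396).

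Jurkat-like cells had few UMIs of the inhibitors. CDKN2C (ENSG00000123080) was at 17.8 and 34.0 CPM and CDKN2D (ENSG00000129355) at 16.2 and 28.7 CPM. CDKN1B (ENSG00000111276) was at 17.8 and 49.1 CPM, while CDKN1A (ENSG00000124762) gave 0 and 2 UMIs and CDKN1C (ENSG00000129757) 1 and 1 UMI. RB1 (ENSG00000139687), the substrate of the CDK4 and CDK6 complexes, was abundant at 412 and 440.0 CPM. MYC (ENSG00000136997) stood at 336 and 315 CPM. CDKN2A and CDKN2B had no row in the tables analysed here.

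For each mouse member, the pathway genes with the most similar pattern were sought over the 4 sums, by root mean square distance of centred log2 CPM among 40 list genes. Ccnd2 lay nearest to Cdkn1b (0.261) and Myc (0.339). Ccnd3 lay nearest to Pcna (0.188) and Mcm5 (0.251), and Ccnd1 to E2f1 (0.340) and Cdkn1a (0.351, with the cell of 325 UMIs included). Cdk4 lay nearest to Ccna2 (ENSMUSG00000027715, 0.111) and Cdc37 (0.139). Nothing on the lists came near to Cdk6, whose closest genes were Cdkn2c at 2.13 and Mcm5 at 2.14. With 4 sums, 2 per class, the measure mostly sorts genes by the size of their difference between the classes.

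Cells were next split by cell cycle state, to ask whether the D cyclins and their kinases move with it within a class. G2/M-high cells were the top 25% of a class and library by their share of UMIs on the G2/M list, taken from cells of at least 2000 UMIs. This gave 10 against 31 and 84 against 254 EL4-like cells, 7 against 20 and 54 against 162 IVA12-like cells, and 20 against 62 and 70 against 212 Jurkat-like cells. The range has no sharp edge, since 4 to 31 cells per set lay within 10% of the boundary. The other cells pool all remaining cell cycle states, so changes among those states cannot be seen. G2/M-high IVA12-like cells at 150 cells per µl had the higher median S phase list level (1984 against 861 CPM), unlike the rest of the sets. G2/M-high cells were also deeper, for instance with medians of 18153.5 against 12427 UMIs in EL4-like cells at 150 cells per µl, and the part of depth in the values below was not tested.

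None of the 11 pairs of member and class that were tested passed the edgeR quasi-likelihood test between G2/M-high and other cells. An unadjusted p under 0.05 was found for 2 of them, and DESeq2 also called 0, with 0 at an unadjusted p under 0.05 among the 9 it tested. The background was low, with 1.76% of 6826 genes called in EL4-like, 1.27% of 6365 in IVA12-like and 3.58% of 5982 in Jurkat-like cells. The 2 with the smallest p-values were in EL4-like cells. Cdk6 was at 661 against 481 CPM at 150 cells per µl and at 799 against 625 CPM at 300 cells per µl, a log2 difference of 0.36 ± 0.10 SE (unadjusted p = 0.00302, edgeR adjusted p = 0.125). Ccnd3 was at 113 against 146 CPM and at 145 against 193 CPM, a log2 difference of −0.43 ± 0.16 SE (unadjusted p = 0.0145, edgeR adjusted p = 0.289). Splitting the cells at the median brought both past the threshold (edgeR adjusted p = 0.0464 for Cdk6 and 0.00885 for Ccnd3). For Cdk6 so did including cells from 1000 UMIs (edgeR adjusted p = 0.0249). Among all genes in EL4-like cells, the split at the median called 166 and cells from 1000 UMIs 177, beside 120 in the main split. The shares of genes tested that these counts make up are not given, so both calls are read with that limit.

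The dominant D cyclins differed little between G2/M-high and other cells. Ccnd2 differed by −0.18 ± 0.12 SE in EL4-like cells (edgeR adjusted p = 0.636) and by −0.05 ± 0.12 SE in IVA12-like cells (edgeR adjusted p = 0.981), and CCND3 by 0.06 ± 0.17 SE in Jurkat-like cells (edgeR adjusted p = 0.959). CDK6 in Jurkat-like cells differed by 0.07 ± 0.07 SE (edgeR adjusted p = 0.802). For none of the 5 mouse genes did the difference itself differ between the mouse classes at the threshold, with Cdk6 nearest at a log2 value of −2.07 ± 0.56 SE (edgeR adjusted p = 0.204), where IVA12-like cells had 1 to 37 Cdk6 UMIs per sum.

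**Figure D5:**
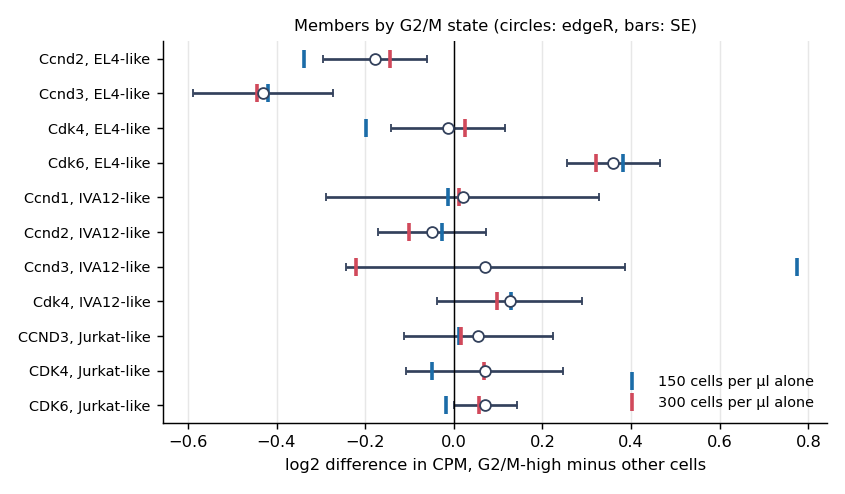
Difference in log2 CPM between G2/M-high and other cells of the same class (edgeR, circles with SE bars, all open because no adjusted p was under 0.05), with coloured ticks for each library alone. Cdk6 (0.36) and Ccnd3 (−0.43) in EL4-like cells lie farthest from 0 and have ticks of both libraries on the same side, while the other genes lie between −0.18 and 0.13.

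The named clusters within a class kept the class pattern. In the 4 clusters of EL4-like cells, at each library where they held cells, the ranking of Cdk6 over Ccnd2 over Ccnd3 over Ccnd1 held, from 398 CPM of Cdk6 and 368 CPM of Ccnd2 in cluster 4 at 150 cells per µl to 684 and 436 CPM in cluster 5 at 300 cells per µl. Clusters 1 and 9, which held cells of that library only, had 644 and 790 CPM of Cdk6 and 479 and 522 CPM of Ccnd2. In cluster 4 at 150 cells per µl the intervals of Cdk6 (326 to 482) and Ccnd2 (299 to 449) overlapped. IVA12-like cells had 2 clusters that differed in G2/M list level (3032 and 3922 CPM in cluster 2, 526 and 1020 CPM in cluster 3). Ccnd2 was at 1620 and 1819 CPM in cluster 2 and at 1812 and 2148 CPM in cluster 3. Cdk4 was at 340.0 and 324 CPM in cluster 2 and at 199 and 260 CPM in cluster 3, and Cdkn1a was at 128 and 211 CPM against 107 and 636 CPM, or 265 CPM without the cell of 325 UMIs. These clusters were formed from the same cells and were not tested. Not all unnamed shallow clusters kept the pattern. Cluster 7, which grouped with EL4-like clusters, had more Ccnd2 than Cdk6 (5 and 3 UMIs at 150 cells per µl, 40 and 30 at 300). At 300 cells per µl, clusters 6 and 8, which grouped with IVA12-like clusters, had 221 and 39.5 CPM of Cdk6 (22 and 2 UMIs). Cluster 6 also had summed T cell markers at 1073 CPM beside B cell markers at 5403 CPM. In the named IVA12-like cells of that library the T cell markers stood at 104 CPM.

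Between the loading concentrations there was 1 library each, so no test was made. Of the 15 pairs of member and class, 11 had at least 100 UMIs, and 10 of these 11 were higher at 300 cells per µl. Ccnd1 in IVA12-like cells was the one past 2-fold (10 and 123 UMIs, log2 ratio 1.33, 0.40 to 2.42). The shares of all genes with that depth past 2-fold were 3.36% in EL4-like, 4.88% in IVA12-like and 1.66% in Jurkat-like cells. CDK6 in Jurkat-like cells (0.54, 0.42 to 0.66) and Ccnd2 in EL4-like cells (0.51, 0.29 to 0.74) followed. The median gene was itself shifted by 0.13, 0.15 and 0.10 on the log2 scale in EL4-like, IVA12-like and Jurkat-like cells. With TMM factors, which allow for that shift, 3 of 11 intervals lay above 0 rather than 8, those of the 3 genes just named. The share of all genes that were higher at 300 cells per µl, or had an interval above 0, was not counted. These counts of members are therefore not by themselves a result.

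Barcodes below 1000 UMIs also held UMIs of these genes, and free RNA and small or damaged cells cannot be told apart there. In barcodes of 200 to 600 UMIs (1672 and 2053 barcodes), Ccnd2 stood at 1148 and 1539 CPM of mouse UMIs and Cdk6 at 461 and 524 CPM. CCND3 stood there at 174 and 231 CPM of human UMIs, close to its level in Jurkat-like cells. CCND2 stood at 24.1 and 60.8 CPM, from 4 and 10 UMIs, above the 4.87 and 4.53 CPM of Jurkat-like cells.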

How the data were processed

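Drop-seq libraries of 1 mixture of 4 lymphocyte lines were analysed, 1 per loading concentration. The authors deposited tables of UMI counts, genes by barcodes, made per the study's methods with Drop-seq tools and STAR 2.4.2a against hg19 and mm10 (the reference of Cell Ranger 1.2.0). In the study's methods, reads were downsampled (seqtk) to a common depth before this pipeline, which lowers the UMIs per cell. The labels do not say whether these tables followed that step. The tables hold 2000 and 4000 barcodes and 2398956 and 8707135 UMIs, and share 1 barcode.

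The members and gene lists were chosen with earlier results of these data known. Symbols were paired with Ensembl identifiers by hand and could not be checked against a reference. Of 42 marker and 84 pathway identifiers, 7 and 2 had no row. Named genes were all members, all INK4 and CIP/KIP genes and up to 8 list genes per direction with the largest difference, past the threshold and of 1 sign in both libraries.

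Cells (at least 1000 UMIs, at least 90% of 1 species) were clustered per species on 2000 variable genes, 15 principal components and 15 neighbours (leidenalg 0.10.2, resolution 0.5), without members and cell cycle lists. Clusters were named by markers, and 3 clusters far shallower than their library stayed unnamed, a rule applied after the clusters were seen. The rule also asked for no own markers among the top genes, which held for every cluster, so depth alone decided. Unnamed clusters still carried class markers at 150 and 300 cells per µl. T cell markers were at 4249 and 3129 CPM in cluster 7, and B cell markers at 7970.5 and 5927 CPM in cluster 8. No doublet caller was run. UMIs were summed per library and class. Sums were tested with edgeR 4.0.16 (R 4.3.3; quasi-likelihood, TMM, filterByExpr, library as a block, Benjamini-Hochberg over all genes tested, threshold 0.05), with DESeq2 1.42.0 as an alternative. The tests were run on simulated sums first. Since the classes come from the same libraries, the block is part of the design. With 4 sums, 1 residual degree of freedom is left and the spread is shared across genes. The number of cells and UMIs per class limits precision, and UMIs do not remove counting error.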

Additional observations from a re-analysis of the deposited data

Results flagged for a closer look

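Human-rich barcodes below the limit of 1000 UMIs (300 UMIs or more, at least 50% human) belonged to no comparison, and the members with more than 3 UMIs there are given as values. At 150 cells per µl, 51 such barcodes held 6 CCND2, 6 CDK4 and 18 CDK6 UMIs. At 300 cells per µl, 82 barcodes held 19 CCND2, 5 CCND3, 5 CDK4 and 38 CDK6 UMIs. CCND2 thus made up 6 of 7 (85.7%, 95% binomial interval 42.1% to 99.6%) and 19 of 24 (79.2%, 57.8% to 92.9%) of the D cyclin UMIs, where CCND3 made up 97.3% in Jurkat-like cells of both libraries. The barcodes with at least 1 UMI of the cytotoxic marker list, 6 and 35 in number, held 4 and 18 of these CCND2 UMIs, with 0 CDK4 UMIs in both libraries and 1 and 6 CDK6 UMIs. The 45 and 47 barcodes without a cytotoxic UMI held 2 and 1 CCND2 UMIs and 17 and 32 CDK6 UMIs. The summed cytotoxic markers stood at 6236 and 4879 CPM in the barcodes that were chosen by them and at 30.8 and 34.0 CPM in Jurkat-like cells, with GNLY, GZMB and IL2RA at 0 in the latter. The part of free RNA in these values was not tested.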

How the results depend on the processing

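Across 11 other settings tested with edgeR or DESeq2, Ccnd2 (log2 difference 2.07 to 2.43 with the single-library values), Ccnd3 (−1.75 to −1.08) and Cdk6 (−6.01 to −4.81) passed the threshold in each, Cdk4 in none, and Ccnd1 in 10 (adjusted p from 1.98e-08 to 0.3, the highest by DESeq2). DESeq2 called 1903 genes between the mouse classes, and without the library block edgeR called 3405. No member changed its call without the block. Leaving out a library leaves values with no test: Cdkn2d then gave 0.047 at 150 cells per µl alone, the opposite sign, and −0.76 at 300 cells per µl alone. Including the 3 shallow clusters or leaving out the cell of 325 Cdkn1a UMIs, both chosen after seeing the data, changed no member's call. Between G2/M-high and other cells, DESeq2 called 32, 22 and 29 genes in EL4-like, IVA12-like and Jurkat-like cells, and edgeR without the block 12, 0 (217 at an unadjusted p under 0.05) and 35. For IVA12-like cells a split at the median called 144 genes and cells from 1000 UMIs 53. The causes of these lower or higher counts were not tested. As a mean over cells, CCND3 made up 91.3% of the D cyclins of Jurkat-like cells at 150 cells per µl. Thinned to 1000 UMIs, Ccnd2 was detected in 37.9% of EL4-like and 79.4% of IVA12-like cells at 300 cells per µl, and CCND3 in 6.90% and 18.6% of Jurkat-like cells, against 14.1% and 18.6% expected over all draws. The values of Ccnd1, Cdk6 in IVA12-like cells, CCND1 and CCND2 rest on few UMIs, and the part of depth in them was not tested.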
